A study of Trichosurus vulpecula with 6 samples.

Results

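The genes for 6 proteins of the inner matrix and membrane of the melanosome were followed in the skin of grey and black brushtail possums (*Trichosurus vulpecula*): *PMEL*, *MLANA*, *OCA2*, *SLC45A2*, *SLC24A5* and *GPR143*. They were chosen by name for their known place in the melanosome, but with earlier results of these data already known. All 6 were found, among 18027 RefSeq genes to which at least 1 assembled transcript could be assigned, and they accounted for 91 assembled transcripts over all libraries.

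The melanosome is the organelle in which melanocytes make and store melanin before passing it to the keratinocytes of skin and hair. In its early stages, fragments of the PMEL protein assemble into amyloid fibrils, the striped matrix on which melanin is later deposited. MLANA is a small membrane protein of the same early compartments that binds PMEL and GPR143. OCA2, SLC45A2 and SLC24A5 move ions or small solutes across the membranes of the melanosome and its precursors. OCA2 is needed for a chloride conductance that keeps the melanosome from becoming too acidic for tyrosinase, and SLC45A2 also takes part in setting this pH. SLC24A5 is an exchanger that couples sodium, potassium and calcium. Loss of any of these 3 transporters gives oculocutaneous albinism in humans. GPR143 is a G protein-coupled receptor of the melanosome membrane that limits the size of melanosomes, and its loss gives ocular albinism.

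The series compared ear punch skin of 3 possums with grey fur and 3 with black fur, all adult females, and each library came from a different animal. No animal received a treatment, and the labels give no genotype. Poly(A)-enriched, strand-specific RNA was read as single-end fragments of 120 bp, and the transcripts of each library were assembled separately. The study made these libraries to describe the transcripts of *ASIP*, a coat colour gene, and to set their levels side by side in both colours. It also used them to screen a coding variant of *ASIP*. In its reads, grey animals showed C alone or C with T at this site, and black animals showed T alone.

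Aligned bases per library ranged from 4.17 gigabases in grey replicate 1 to 10.2 gigabases in grey replicate 3. Skin was recognisable in every library, for example by the desmosomal gene *DSG1* at 941 to 1645 TPM (the abundance of a transcript after correction for its length and for library size). Black replicate 1 stood apart in skeletal muscle genes, of which 5 listed markers summed to 2899 TPM there against 3.97 to 7.18 TPM elsewhere. Grey replicate 1 was the shallowest library and stood apart in the hair shaft keratin *KRT35*, with 37.8 TPM against 1.62 to 4.77 TPM in the other libraries.

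Gene levels were measured on 2 scales, because the first depended on how completely a gene had been assembled. The first scale was TPM summed over the transcripts of a gene. The second was mean coverage per aligned gigabase over shared exon bases, meaning exon bases that at least 4 of the 6 libraries had assembled. A gene recovered as several short pieces has the TPM of every piece added, although the pieces are parts of the same transcript. Among the 36 combinations of gene and library, 26 were assembled as 1 piece, and their TPM was 1.63 to 3.76 times the coverage per gigabase, with a median of 2.02. The other 10 came in 2 or more pieces, and there the ratio ran from 2.19 to 19.0 with a median of 5.95. The highest ratio was that of *OCA2* in grey replicate 1. Shared-exon coverage counts exon bases that were not assembled as 0, so it can understate a low gene in a shallow library.

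**Figure D1:**
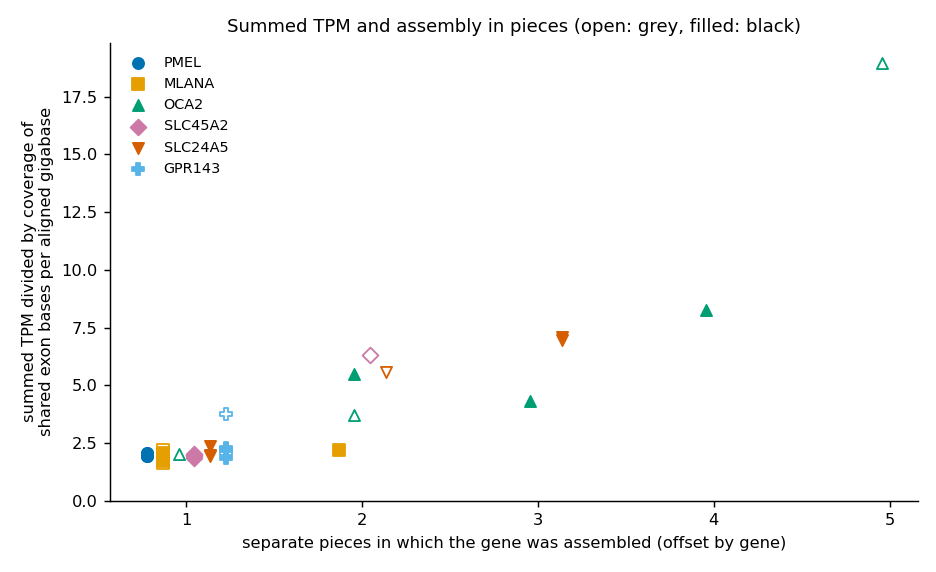
Summed TPM divided by coverage of shared exon bases per aligned gigabase (vertical axis) against the number of separate pieces in which the gene was assembled (horizontal axis), 1 point for each gene and library. Open symbols are grey and filled symbols black libraries. Points of 1 piece lie between 1.63 and 3.76, and *OCA2* in grey replicate 1, assembled in 5 pieces, lies at 19.0.

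*PMEL* lies on the forward strand of chromosome 5 (assembly mTriVul1.pri, 266730047 to 266738254), and it was the matrix gene with the deepest coverage. Its level was 18.3, 75.9 and 22.8 TPM in grey replicates 1, 2 and 3, and 55.9, 24.3 and 78.7 TPM in black replicates 1, 2 and 3. High and low libraries occurred in both colours, and the groups overlapped. Mean TPM was 38.99 ± 32.0 for grey and 52.9 ± 27.3 for black skin (SD, n = 3 each; exact 2-sided permutation test, p = 0.50). With 3 libraries a side this test cannot give a p below 0.1. The log2 fold change from limma, fitted to all genes, was 0.57 with an SE of 0.62 and a 95% interval from −0.91 to 2.04.

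On shared exon bases the coverage of *PMEL* per gigabase was 9.49, 37.0 and 11.6 in the grey libraries and 26.9, 12.5 and 40.5 in the black libraries. All 11 exons of its most abundant form were assembled in every library, so both scales gave almost the same picture, with black replicate 3 highest and grey replicate 1 lowest. The highest level was 4.26 times the lowest. The gene rested on 721 reads of 120 bases in grey replicate 1 and on 5655 in grey replicate 2.

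The 11-exon form made up 62.7% and 84.4% of *PMEL* TPM in grey replicates 2 and 3, and 87.9%, 47.0% and 88.0% in black replicates 1, 2 and 3. In grey replicate 1 the only transcript carried a further short exon upstream, 563 bases before the usual first exon. The remaining forms differed mainly in the largest exon, which spans 804 bases (266734830 to 266735633). In grey replicate 2 and in black replicates 2 and 3, part of the transcripts had a gap of 39 bases inside this exon, from 266735246 to 266735284. The gap removes 13 codons and keeps the reading frame if the exon is coding throughout. It was carried by 37.3%, 50.4% and 12.0% of the TPM of transcripts that span the site in those libraries and by 0% in the others. Both colours were represented among the libraries with the gap and among those without it. Assembled transcripts cannot show whether a gap this short was spliced out, was missing from the DNA of that animal or arose otherwise. Its origin was not tested.

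A second variant of the 804-base exon began at an inner acceptor and left out its first 687 bases. It carried 8.50% of the TPM over this junction in grey replicate 3, and 10.4% and 5.39% in black replicates 1 and 2. The preceding exon of 162 bases was left out in 7.73% in grey replicate 3 and 1.89% in black replicate 1. Both lengths are multiples of 3. Each of these 3 variants was found in at least 1 library of both colours.

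*MLANA*, whose product accompanies PMEL in early melanosomes, lies on the forward strand of chromosome 9 (85981626 to 86000544). The gene had 25.0, 60.7 and 20.2 TPM in grey and 46.3, 41.0 and 68.4 TPM in black replicates 1, 2 and 3. Grey replicates 1 and 3 were below all black libraries, but grey replicate 2 was above 2 of them. Mean TPM was 35.3 ± 22.1 for grey and 51.9 ± 14.6 for black skin (SD, n = 3 each; exact 2-sided permutation test, p = 0.30). The log2 fold change was 0.67 (SE 0.42, 95% interval −0.32 to 1.67), the highest estimate of the 6 genes, with an unadjusted p of 0.15 and an adjusted p of 1.00 from limma. When each library in turn was left out, the estimate ran from 0.37 without grey replicate 3 (0.46 without black replicate 3) to 1.14 without grey replicate 2. The unadjusted p of the last was 0.0060 and its adjusted p 1.00 from limma. On only the exon bases each library had assembled, the estimate was 0.04.

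Shared-exon coverage of *MLANA* was 11.5, 29.7 and 12.4 per gigabase in the grey libraries and 26.6, 18.7 and 32.9 in the black libraries. The order of the 6 libraries was the same as for *PMEL*. Its spread was the narrowest of the 6 genes, with the highest library 2.87 times the lowest.

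An exon of 117 bases (85993340 to 85993456) was left out of part of the *MLANA* transcripts in all 6 libraries. The share without it was 10.1%, 4.31% and 28.0% of the TPM over the junction in grey, and 10.2%, 14.6% and 3.53% in black replicates 1, 2 and 3. The shares of the colours overlapped, with means of 14.2% ± 12.4 and 9.44% ± 5.58 (SD, n = 3 each). The exon holds 39 whole codons in length.

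The 5′ end of *MLANA* varied far more than its body. The intron from 85981703 to 85989727 carried at least 99.3% of the TPM in every library, and the gene had 14 distinct chains of introns over all libraries. In grey replicate 1 all transcripts began within 34 bases of the RefSeq start. In grey replicate 2 and black replicate 1 all of them carried a leader exon ending at 85981400, separated from the next exon by an intron of 200 bases. In grey replicate 3 all spliced from a donor at 85979506 across an intron of 2094 bases, and black replicates 2 and 3 used this junction in 5.15% and 3.50% of TPM. The farthest starts lay 17907 bases upstream of the RefSeq start in black replicate 1 and 17852 bases upstream in black replicate 3. Transcripts that joined such a start to the gene made up 40.8% of *MLANA* TPM in black replicate 1 and 3.50% in black replicate 3. These shares are those StringTie gave to each assembled start, and the starts that a library lacks may have had too few reads.

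**Figure D2:**
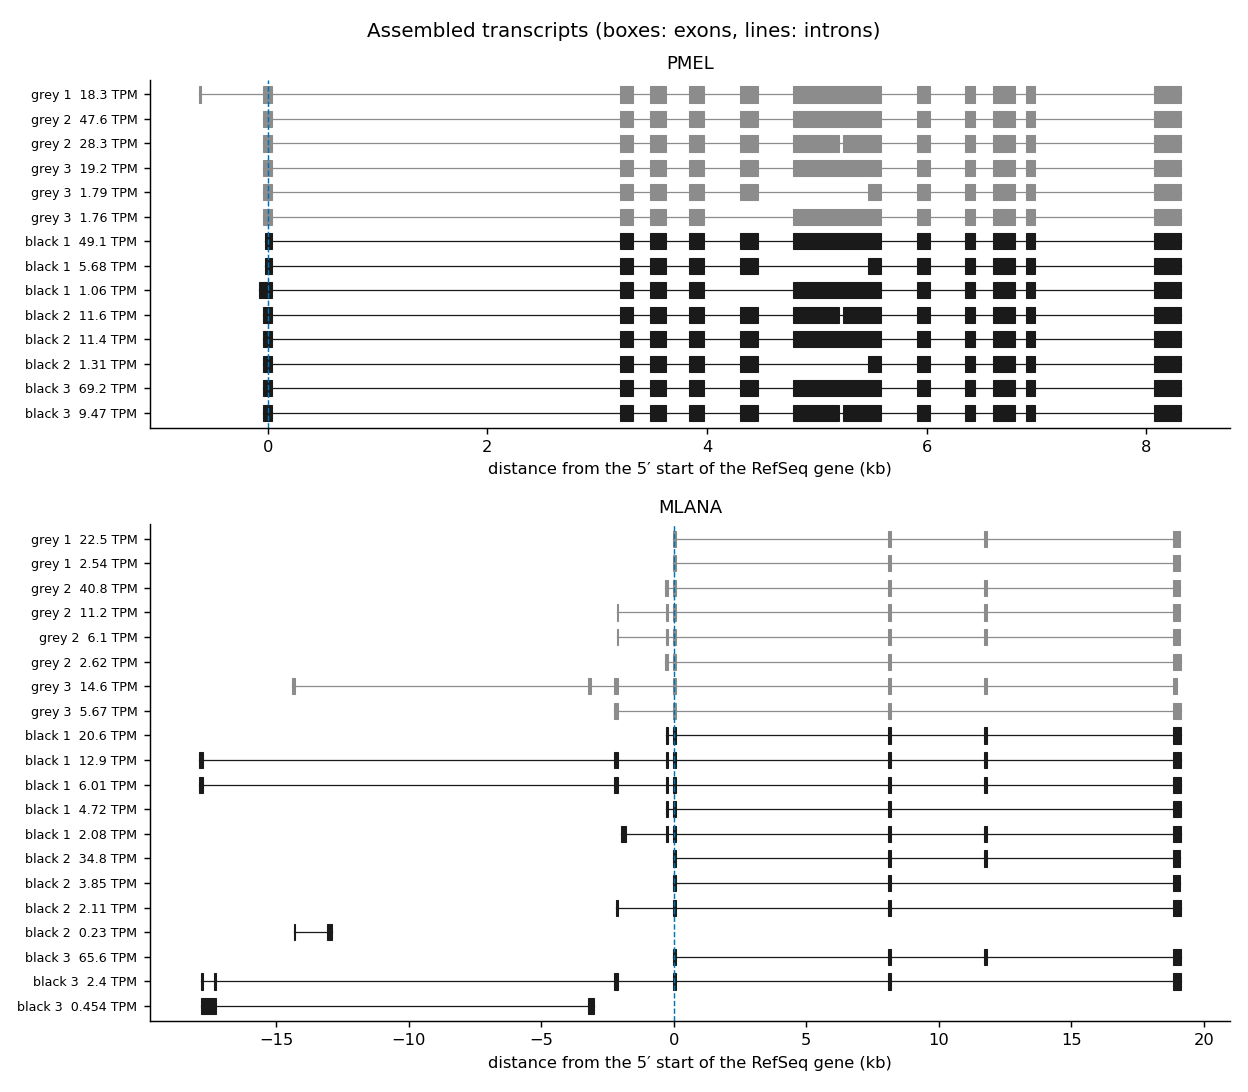
Every assembled transcript of *PMEL* (upper panel) and *MLANA* (lower panel), with exons as boxes and introns as lines, grey libraries in grey and black libraries in black. The horizontal axis is the distance from the RefSeq start of the gene in kb, the dashed line marks that start, and each row gives the library and the TPM of the transcript. The 39-base gap in the large exon of *PMEL* appears in 3 libraries, and the starts of *MLANA* reach as far as 17.9 kb upstream.

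*OCA2* is the longest of the genes, with a RefSeq span of 625581 bases on the reverse strand of chromosome 2 (393190808 to 393816388), and the transporter with the lowest coverage. Its summed TPM was 5.03, 3.04 and 1.29 in grey and 4.26, 1.71 and 4.79 in black replicates 1, 2 and 3. These values put the shallow grey replicate 1 first and grey replicate 2 below black replicates 1 and 3. Over shared exon bases the coverage was 0.265, 1.49 and 0.348 per gigabase in grey and 0.517, 0.313 and 1.11 in black replicates 1, 2 and 3. The order was turned round, with grey replicate 2 now highest and grey replicate 1 lowest.

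The assembly of the gene differed between the libraries in the same way. Only grey replicate 2 held the full form of 24 exons in 1 transcript. Grey replicate 1 had 18 of the 24 exons, spread over 5 separate transcripts of at most 432 bases that rested on 31 reads in all. Black replicate 1 had all 24 exons but in 4 pieces, and black replicate 2 had 19 exons in 2 pieces. The median exon was covered 1.09 times in grey replicate 1 and 11.2 times in grey replicate 2. For *OCA2* the log2 fold change was 0.19 in TPM (95% interval −0.91 to 1.29) and 0.08 on shared exon bases (−1.61 to 1.77), and the exact 2-sided permutation p was 0.80 and 0.90.

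**Figure D3:**
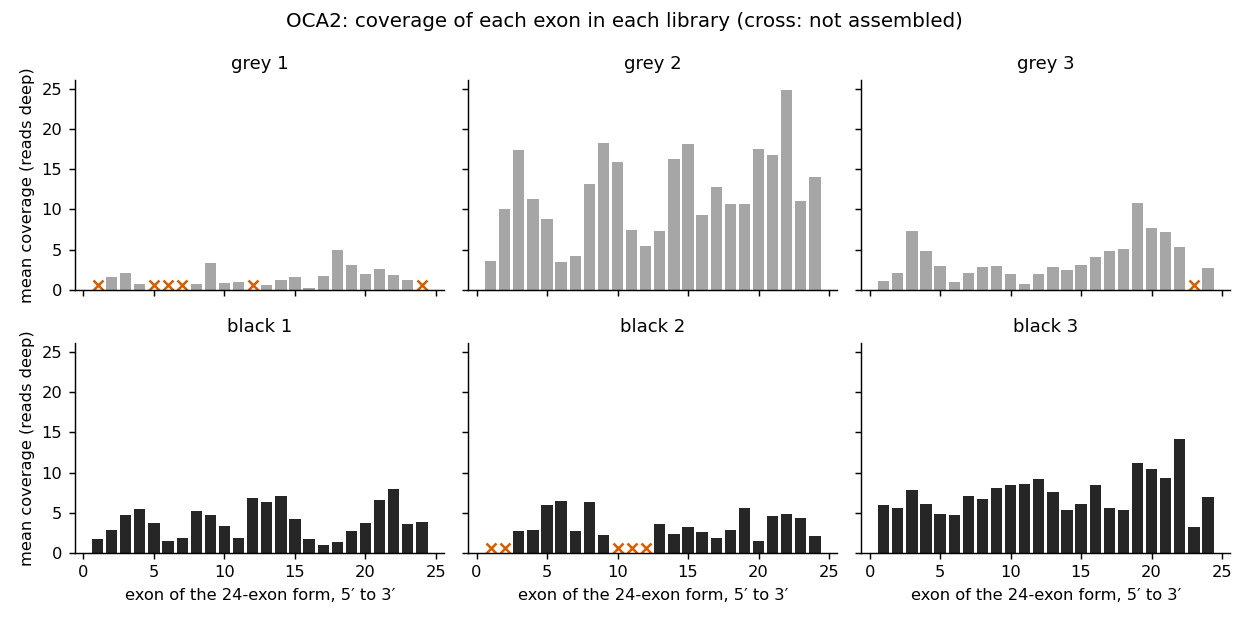
Mean coverage of each of the 24 *OCA2* exons (vertical axis) in 5′ to 3′ order (horizontal axis), 1 panel for each library, with grey libraries above and black libraries below. Crosses mark exons that were not assembled: 6 in grey replicate 1, 1 in grey replicate 3 and 5 in black replicate 2. Exon coverage reached 24.9 in grey replicate 2 and no more than 4.99 in grey replicate 1.

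The assembled *OCA2* transcripts started beyond the RefSeq gene. In grey replicates 2 and 3 and black replicates 1 and 3, a first exon was joined to the exon at the RefSeq start across an intron of 41596 bases (393816412 to 393858007). This exon was covered 3.59, 1.14, 1.74 and 5.97 times in those libraries. It was not assembled in grey replicate 1 or black replicate 2, which were the 2 libraries with the lowest shared-exon coverage of the gene. An exon of 94 bases near the 3′ end (393354391 to 393354484) was missing from the only transcript over that junction in grey replicate 3 and was present in the other 5 libraries. Its length is not a multiple of 3. A predicted gene nested in the *OCA2* span was kept apart and added nothing to these values. In black replicate 3 a transcript of 2 exons (393493116 to 393497308) was nevertheless counted with *OCA2*. It lay inside the intron from 393465521 to 393544249 and made up 7.89% of *OCA2* TPM in that library. Its exons were assembled in 1 library only and so were not shared exon bases. A separate transcript of 1 exon at the 3′ end gave 2.24 of the 4.79 TPM of *OCA2* in black replicate 3.

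*SLC45A2* (reverse strand of chromosome 1, 398444971 to 398511750) had 3.44, 4.86 and 0.895 TPM in grey and 1.81, 1.56 and 4.06 TPM in black replicates 1, 2 and 3. The grey values enclosed all of the black values. Shared-exon coverage was 0.544, 2.38 and 0.452 per gigabase in grey and 0.912, 0.837 and 2.11 in black replicates 1, 2 and 3. The main change between the scales was in grey replicate 1, which had 5 of the 7 exons in 2 pieces and moved from rank 3 to rank 5. The log2 fold change was −0.15 in TPM (95% interval −1.34 to 1.05) and 0.42 on shared exon bases (−1.18 to 2.01), so that its sign depended on the scale. The exact 2-sided permutation p was 0.80 and 0.60.

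*SLC45A2* had the simplest structure of the 6 genes. A form of 7 exons was assembled whole in 5 libraries and made up 100% of the TPM in 4 of them. In grey replicate 2 a second transcript without an internal exon of 144 bases (398479865 to 398480008) made up 5.75% of TPM.

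*SLC24A5* (reverse strand of chromosome 8, 172053973 to 172080473) had 4.86, 7.14 and 3.46 TPM in grey and 5.39, 2.31 and 6.20 TPM in black replicates 1, 2 and 3. Again the groups overlapped, with grey replicate 2 first and black replicate 2 last. On shared exon bases the coverage was 0.699, 3.57 and 0.620 per gigabase in grey and 0.760, 1.19 and 2.61 in black replicates 1, 2 and 3. Here black replicate 2 moved up to rank 3. It held a single transcript of 9 exons, while grey replicate 1 and black replicate 1 were each in 3 pieces. For this exchanger the log2 fold change was −0.16 in TPM (95% interval −1.06 to 0.74) and 0.17 on shared exon bases (−1.59 to 1.93). The exact 2-sided permutation p was 0.80 and 1.00.

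The 9-exon form of *SLC24A5* was present in grey replicate 2 and in black replicates 2 and 3, and it made up 74.5%, 100% and 69.7% of TPM there. The remaining TPM of grey replicate 2 came from a transcript whose first exon began 1062 bases upstream of the RefSeq start. *MYEF2* overlaps the gene on the opposite strand, and the libraries and the assembly kept strand.

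*GPR143* (reverse strand of chromosome 2, 411984360 to 412043180), the receptor of the group, had 1.90, 10.2 and 2.34 TPM in grey and 3.88, 2.30 and 5.78 TPM in black replicates 1, 2 and 3. Shared-exon coverage was 0.847, 2.71 and 1.12 per gigabase in grey and 1.71, 1.24 and 2.61 in black replicates 1, 2 and 3. Grey replicate 2 was highest on both scales, and its lead over black replicate 3 was far smaller on shared exon bases. The log2 fold change was 0.0052 in TPM (95% interval −1.34 to 1.35) and 0.34 on shared exon bases (−0.82 to 1.504), with an exact 2-sided permutation p of 0.90 and 0.60.

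The 9-exon form of *GPR143* was assembled in 4 libraries, as 62.2% of TPM in grey replicate 3 and as 77.4%, 100% and 70.7% in black replicates 1, 2 and 3. In grey replicate 2 the gene was divided between overlapping partial transcripts of 2, 3 and 8 exons, and its TPM was 3.76 times its coverage per gigabase. An acceptor 40 bases inside the exon before the last (412008266 to 412008509) carried 11.1% of the TPM of the gene in grey replicate 2 and 12.6% in black replicate 1, and its shift is not a multiple of 3. A further 53.3% of the TPM in grey replicate 2 joined the same donor to another acceptor that no other library contained. The usual junction to the exon before the last, across the intron from 412008510 to 412018048, was not assembled in grey replicate 2. In grey replicate 3 an exon of 109 bases was left out of 15.5% of the TPM over its junction. The next exon upstream had 110 bases in the 9-exon form and was assembled at this length in all 6 libraries. Of the TPM joining it to the 109-base exon, its donor carried 100% except in grey replicate 3 (73.7%) and black replicate 1 (90.0%). There the rest used a donor 27 bases further on, which lengthened the exon to 137 bases.

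No gene of the group passed the test between coat colours. Of 15586 genes tested with limma on log2(TPM + 1), 3 were called at an adjusted p under 0.05 (0.0192%), 2 higher and 1 lower in black skin, and 0 of the 6 were among them. None of the 6 had an unadjusted p under 0.05, against 363 of all genes (2.33%). The TPM of the groups overlapped for all 6, while it did not overlap for 987 genes (6.33%). The median estimate was 0.10 over the 6 genes and 0.04 over all genes tested in TPM, and 0.38 and 0.06 on shared exon bases. Estimates were above 0 for 4 of the 6 genes in TPM and for all 6 on shared exon bases, where 0 of 6 were called and the lowest unadjusted p was 0.15. These estimates are differences of mean logs, and the plain means ran the other way for some genes. In coverage per gigabase the mean of *OCA2* was 0.701 for grey and 0.645 for black skin and that of *SLC24A5* 1.63 and 1.52, and the mean of *GPR143* in TPM was 4.81 and 3.99. The 95% intervals reached above 1 log2 unit for 5 of the 6 genes in TPM and all 6 on shared exon bases, so that a difference of 1 log2 unit in black skin lay within the error for these genes. Without black replicate 1, the library with muscle genes, or without the shallow grey replicate 1, 0 of 6 were called.

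**Figure D4:**
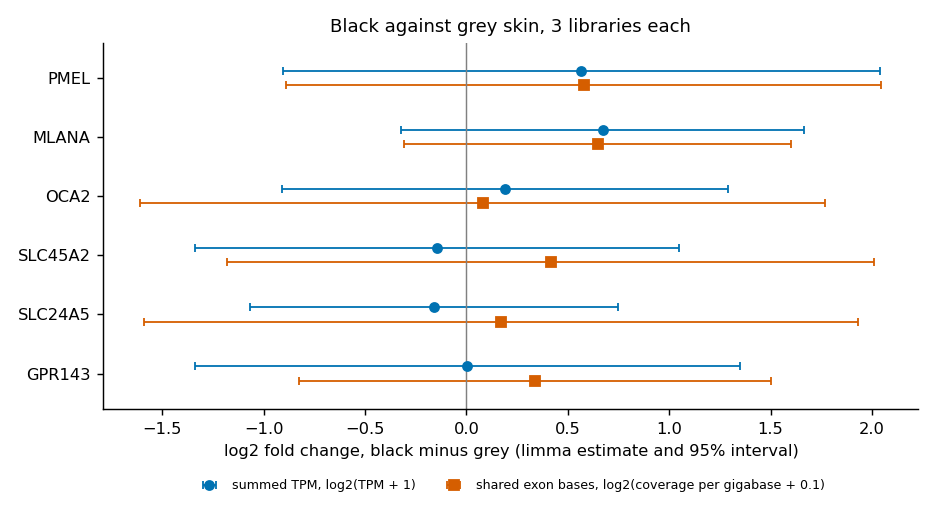
Log2 fold change of black over grey skin (horizontal axis) for each of the 6 genes, as the limma estimate with its 95% interval from 3 libraries of each colour. Circles are summed TPM and squares are shared exon bases. All 12 intervals include 0, and the estimates of *SLC45A2* and *SLC24A5* lie below 0 in TPM and above 0 on shared exon bases.

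The 6 genes had their highest libraries in common. Grey replicate 2 and black replicate 3 were the 2 highest libraries for all 6 on shared exon bases and for 5 of 6 in TPM, *OCA2* being the exception. They were also the 2 highest for the melanin enzymes *TYR*, *TYRP1* and *DCT*. Of all 15862 genes with a shared-exon level, 1263 (7.96%) had these 2 libraries highest. The highest library exceeded the lowest by 4.26-fold for *PMEL*, 2.87-fold for *MLANA*, 5.62-fold for *OCA2*, 5.26-fold for *SLC45A2*, 5.76-fold for *SLC24A5* and 3.20-fold for *GPR143*. These folds run over both colours, and for *PMEL* and *MLANA* the highest library was black replicate 3 and the lowest grey replicate 1. Libraries of the same colour also differed, as for *PMEL* with 9.49 to 37.0 per gigabase in grey and 12.5 to 40.5 in black. A range over single animals tends to exceed a difference of means, so the 2 were not weighed against each other. In bulk skin, fewer melanocytes and less RNA per melanocyte cannot be told apart.

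**Figure D5:**
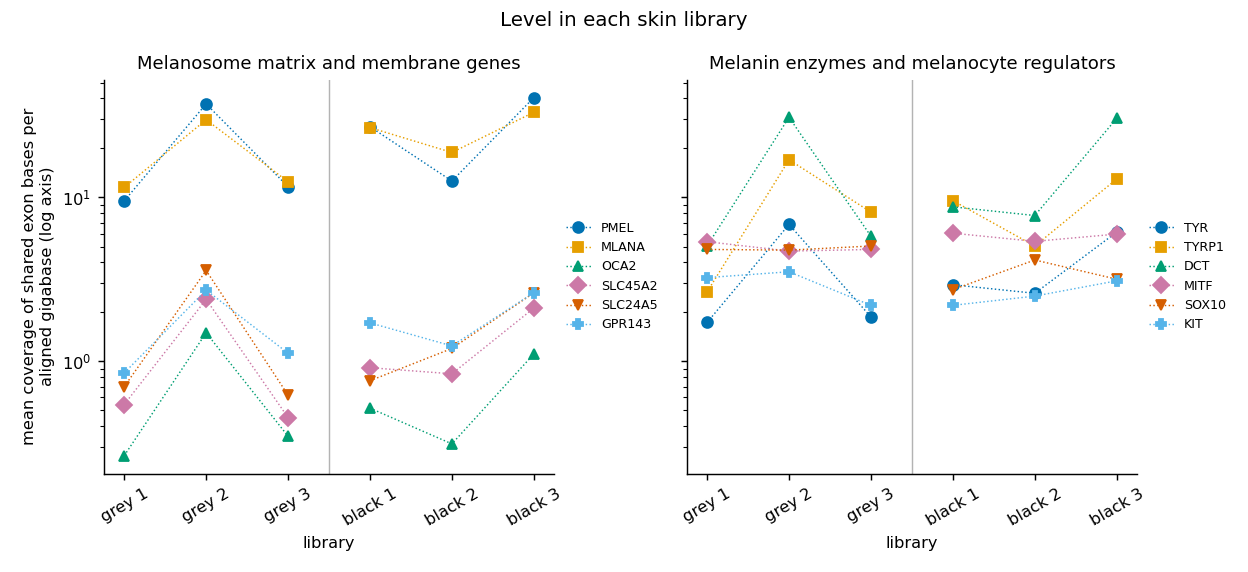
Mean coverage of shared exon bases per aligned gigabase (vertical log axis) in each library (horizontal axis) for the 6 genes (left) and for 3 melanin enzymes and 3 melanocyte regulators (right). Dotted lines join libraries of the same colour only to guide the eye. The other measured regulators of the melanocyte are not shown. The 6 genes and the enzymes are highest in grey replicate 2 and black replicate 3, whereas *MITF*, *SOX10* and *KIT* stay within 1.29-fold, 1.84-fold and 1.60-fold.

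Levels also differed between the genes. On shared exon bases, which correct for length, *PMEL* averaged 23.0 ± 13.7 and *MLANA* 22.0 ± 9.09 per gigabase over the 6 libraries (SD, n = 6). *GPR143* averaged 1.71 ± 0.792, *SLC24A5* 1.58 ± 1.23, *SLC45A2* 1.21 ± 0.827 and *OCA2* 0.673 ± 0.506. *PMEL* and *MLANA* were the 2 highest genes in every library and changed places between libraries, 3 times each way. The 4 others lay within each other's spread, except that *OCA2* was the lowest in all 6 libraries. The lead of *PMEL* and *MLANA* over the other 4 genes was thus present in every library of both colours.

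Pairs of the genes rose and fell together to a degree that depended on the scale. In log2(TPM + 1), Pearson's r of the 15 pairs ran from 0.26 for *OCA2* and *GPR143* to 0.92 for *PMEL* and *GPR143*, with a median of 0.71. None of the 15 pairs passed an adjusted p of 0.05 (exact permutation over the 720 orders of 6 libraries, Benjamini-Hochberg over 15 pairs, lowest adjusted p = 0.083). Spearman's rho had a median of 0.71, and 0 pairs passed by it. On shared exon bases r ran from 0.78 to 0.98 with a median of 0.93. By r 13 of the 15 pairs passed (exact permutation, adjusted p from 0.021 to 0.099 over all pairs). By rho 11 passed (exact permutation, adjusted p from 0.042 to 0.136 over all pairs). Without the 2 libraries farthest from the median of the first gene, the median r was 0.66 in TPM and 0.74 on shared exon bases, and 11 of 15 pairs stayed positive in TPM (lowest r −0.83) and 14 of 15 on shared exon bases (lowest r −0.12). For some pairs the relation thus rested on those libraries. When coverage was averaged over only the exon bases each library had assembled, 4 of 15 pairs passed by r and 1 by rho, with a median r of 0.84. Without the 2 farthest libraries 11 of 15 pairs stayed positive on that scale, with a lowest r of −0.27. The points share tissue and the depth of their library, and groups of 3 were too small to give r within a colour.

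Set against the melanin enzymes, the spread over libraries was smaller on shared exon bases, though for *MLANA* it only went from 2.87-fold to 2.19-fold. The geometric mean of *TYR*, *TYRP1* and *DCT* on shared exon bases was 2.84, 15.2 and 4.43 per gigabase in grey and 6.24, 4.65 and 13.4 in black replicates 1, 2 and 3. It spanned 5.36-fold over the libraries. Divided by it, *OCA2* spanned 1.45-fold, from 0.0672 in black replicate 2 to 0.0977 in grey replicate 2. *GPR143* spanned 1.68-fold, *PMEL* 1.77-fold, *SLC45A2* 1.87-fold, *SLC24A5* 2.11-fold and *MLANA* 2.19-fold. In summed TPM the same ratio spanned 9.15-fold for *OCA2*, 5.85-fold for *SLC45A2* and 3.76-fold for *SLC24A5*, each highest in grey replicate 1. For these 3 genes the TPM alone spanned less, 3.90-fold, 5.43-fold and 3.09-fold.

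The tyrosinase gene *TYR* was also close to the group among all genes. Among 9499 named genes whose mean TPM reached 5, the 5 most like the mean of the 6 on shared exon bases were *OLFM1*, *TYR*, *ALG3*, *NT5C3B* and *ACAP1*, each with r of 0.99 over 6 libraries. *DCT* ranked 8th with r of 0.98 and *TYRP1* 183rd with r of 0.86. In TPM the 5 nearest of 9533 were *PRPF40B*, *TBC1D9B*, *ZCRB1*, *TTK* and *NEURL1B*, and *TYR* ranked 101st with r of 0.89. The 2 lists of 5 had no gene in common. With only 6 libraries and so many candidates, a high r is reached by many genes. Of the melanocyte regulators, *KIT*, the receptor for stem cell factor, ranked 1831st on shared exon bases. The transcription factors *MITF* and *SOX10* ranked 4370th and 7761st, the latter with r of −0.39. These 3 do not stand for every regulator. Of the 8 measured, *EDNRB* alone had grey replicate 2 and black replicate 3 highest, with 4.79 and 5.49 per gigabase. In the other libraries *EDNRB* had 2.23 to 3.69 per gigabase.

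Likenesses to particular members depended on the scale. On shared exon bases *DCT* was rank 3 among the genes most like *OCA2* (r = 0.97 over 6 libraries) and *TYR* rank 2 for *SLC45A2* (r = 0.99). *PMEL* and *GPR143* were each among the 5 nearest genes of the other (r = 0.98). In TPM *DCT* was rank 3045 for *OCA2* (r = 0.30) and *TYR* rank 833 for *SLC45A2* (r = 0.72). On that scale neither *PMEL* nor *GPR143* was among the 5 nearest genes of the other (r = 0.92).

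In the wider pigment pathway 0 genes were called in any list, beside the 0.0192% called over all genes, a share at which lists of this size would be likely to hold none. *TYR* had 3.44, 13.98 and 3.51 TPM in grey and 5.83, 4.94 and 12.3 TPM in black replicates 1, 2 and 3. The enzyme gene *TYRP1* had 5.24, 32.5 and 15.3 TPM in grey against 19.0, 9.70 and 25.2 TPM in black. *DCT*, dopachrome tautomerase, had 9.77, 65.5 and 11.6 TPM in grey against 18.4, 15.04 and 61.7 TPM in black. All 3 enzymes overlapped between the colours.

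Of 8 listed genes for the sorting and processing of PMEL and for the GPR143 partner, 6 had a value and 0 were called. *BACE2*, a protease that releases the fibril-forming part of PMEL, ran from 2.96 to 6.41 TPM. *CD63*, a tetraspanin that sorts PMEL, ran from 359 to 473 TPM, and *GPNMB*, a relative of PMEL that macrophages also express, from 95.5 to 201.6 TPM. *GNAI3*, a G protein subunit that acts with GPR143, had 35.9 to 125 TPM but only a 1.496-fold range on shared exon bases. *ADAM17*, a membrane protease, did not overlap, with 30.5, 30.5 and 33.9 TPM in grey and 40.2, 34.2 and 42.2 TPM in black (log2 fold change 0.29, limma adjusted p = 1.00). In TPM 6.33% of all genes did not overlap. The transcripts of *APOE* were joined to those of a neighbouring gene and *PDCD6IP* was not matched by name, so neither has a value.

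Among 7 other transporters and channels of the melanosome, all measured and 0 called, *SLC7A11*, the cystine importer, ran from 1.02 to 4.27 TPM and the lysosomal and melanosomal *MFSD12* from 3.99 to 5.88 TPM. *TRPM1*, a cation channel gene of melanocytes, was listed at 0 and had 1.17 and 0.811 TPM in grey replicates 1, 2 and 3, against 2.51, 2.15 and 4.02 TPM in black. Its TPM did not overlap between the colours, beside the 6.33% of all genes. It overlapped on shared exon bases, where grey replicate 2 reached 0.261 per gigabase against 0.196 to 0.419 in black. Its log2 fold change was 1.27 (SE 0.41, limma unadjusted p = 0.018, adjusted p = 1.00).

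Of 9 listed transcription factors and receptors of the melanocyte, 8 had a value and 0 were called. *SOX10*, which marks both melanocytes and Schwann cells, was lower in all black libraries, with 9.31, 9.67 and 10.7 TPM in grey and 5.91, 7.80 and 6.11 TPM in black. Its groups did not overlap on either scale (log2 fold change −0.52, SE 0.19, limma unadjusted p = 0.030, adjusted p = 1.00). The same was so for 6.33% of all genes in TPM and 6.39% on shared exon bases, each scale taken alone. *MITF* had 9.49 to 10.4 TPM in grey and 10.2 to 12.2 TPM in black. Its groups did not overlap on shared exon bases, with 4.69 to 5.35 per gigabase in grey and 5.38 to 6.03 in black (limma adjusted p = 1.00), as was so for 6.39% of all genes on that scale. *KIT* had 4.08 to 7.02 TPM in grey and 4.23 to 6.01 TPM in black. No assembled transcript was assigned to *MC1R*, the receptor on which ASIP acts, in any of the 6 libraries. Too few reads, or transcripts too partial to match the gene span, can each leave a gene without a value. The reason was not tested. In the lists for melanosome transport (6 genes) and the biogenesis of related organelles (12 genes) 0 were called. In TPM only *HPS1* among them did not overlap, with 9.81 to 19.6 TPM in grey and 20.01 to 23.9 TPM in black, beside the 6.33% of all genes. On shared exon bases *HPS1* did not overlap either, with 4.39 to 7.17 per gigabase in grey and 8.02 to 9.47 in black. *AP3D1* also did not overlap on that scale, with 8.85 to 9.21 per gigabase in grey and 9.28 to 10.3 in black, beside the 6.39% of all genes.

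Markers of other cells in the skin were set beside these levels. Macrophage markers, which summed to 79.4, 96.4 and 47.4 TPM in grey and 75.3, 62.4 and 197 TPM in black replicates 1, 2 and 3, were highest in the same 2 libraries as the 6 genes, and 3 of the 5 markers had both of those libraries highest. Schwann cell markers (5 of 6 measured) summed to 183 to 645 TPM and hair markers (4 of 5) to 33.4 to 93.9 TPM, both highest in grey replicate 1, where the 6 genes had rank 5 or 6 of 6 on shared exon bases but *OCA2* was highest in TPM. Fibroblast markers (5 of 5) ranged from 962 to 3609 TPM and keratinocyte markers (2 of 6) from 978 to 1693 TPM. None of these lists had a gene called. *TNNT3* of the muscle list did not overlap in TPM (0 to 0.515 in grey, 0.555 to 99.6 in black), beside the 6.33% of all genes. The part of any of these cells in the levels of the 6 genes was not tested.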

How the data were processed

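The deposited file of each library holds assembled transcripts, each with its exons, their coverage, and the FPKM and TPM of the transcript, as the authors obtained them. Reads were trimmed (Trim Galore 0.6.10), mapped to mTriVul1.pri (HISAT2 2.2.1), cleared of a contaminating amplicon and assembled per library (StringTie 2.2.0, guided by an annotation with names from other species). The deposited FPKM and TPM are normalized, coverage is the mean depth per base, and none of them is a read count, so no count model was used. Depth was coverage divided by FPKM.

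Gene names came from the RefSeq table of the same assembly, which gives gene spans without exons or strand. Exons were therefore taken from transcripts that matched a span (0.5 of the joint span, or 80% of one inside the other), and a transcript was given to the same-strand gene with the largest exon overlap. TPM was summed per gene. No transcript of the 6 genes carried a reference name.

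Colours were compared with limma 3.58.1 (R 4.3.3, mean-variance trend, Benjamini-Hochberg) on log2(TPM + 1) where mean TPM was 1 or more, a scale that understates changes of low genes, and with exact 2-sided permutation of TPM over 20 assignments. Coverage was tested with a pseudocount of 0.1. Both scales of coverage per gigabase were chosen after seeing the data. Simulated data with known changes were used to test the fit. Genes were named by a rule that covered the 6 genes, 14 pathway genes, genes whose groups did not overlap and the 5 nearest genes by r. *KRT35*, *DSG1*, *MYEF2* and *EDNRB* were named after their values were seen. The members and lists were chosen with earlier results of these data known. Replicate numbers did not pair the libraries (r of deviations −0.034, 0.022 and −0.046).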

Additional observations from a re-analysis of the deposited data

How the results depend on the processing

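Limits came from depth and assembly: a low gene in a shallow library was assembled in pieces or in part, intervals from 3 animals a side were wide, and isoform shares rest on few reads at gene ends. The number of genes called was 3 in the whole table and became 1 where mean TPM was 5 or more, 6 with a fixed exon length per gene, 5 with exon bases assembled in each library, 0 with the replicate block and 0 to 2 when each library in turn was left out, and the cause was not tested. Of the 6 genes, 0 were called under any of these settings. The log2 fold change of *OCA2* changed sign with multi-exon transcripts only (−0.046) and with exon bases assembled in each library (−0.10), and ran from −0.18 to 0.53 without each library. That of *SLC45A2* changed sign with a fixed exon length (0.35), on shared exon bases (0.42) and with exon bases assembled in each library (0.19), and ran from −0.62 to 0.19. That of *SLC24A5* changed sign with a fixed exon length (0.083) and on shared exon bases (0.17), and ran from −0.38 to 0.18. That of *GPR143* changed sign with quantile normalization (−0.0053) and median-ratio factors (−0.024), and ran from −0.35 to 0.62. Without each library *PMEL* ran from 0.18 to 1.18 and *MLANA* from 0.37 to 1.14. With exon bases assembled in each library *MLANA* fell to 0.04, and its mean was 16.1 per gigabase for grey and 14.7 for black skin. Pairs of genes with an adjusted p under 0.05 numbered 0 in TPM, 13 with a fixed exon length, 13 on shared exon bases and 4 with exon bases assembled in each library. A fit with the replicate block gave 0 called genes, 0 of them among the 6, and the replicate numbers did not pair the libraries. Transcripts carrying the deposited reference gene name gave no value for the 6 genes.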
